A study of Mus musculus with 8 samples.

Results

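The genes described here are 8 regulators of the motile cilium programme, chosen by name: Foxj1, Rfx1, Rfx2, Rfx3, Rfx4, Trp73, Myb and Ccno. All 8 were on the array, out of 31709 gene names that it carries, with 13 probes between them. All 13 probes passed the filter for signal above background, 1 of them (Trp73 A_55_P1988133) through the Nedd9-null arrays alone. RNA had been taken from ovarian tumours that arose spontaneously in female C57BL/6JTgMISIIR-TAg mice. Tumours of Nedd9-null mice (4) were set against tumours of Nedd9-WT mice (4), 1 Agilent array in 1 colour for each. All 8 mice carried the TgMISIIR-TAg transgene, in which regulatory sequence of the anti-Muellerian hormone receptor gene (Amhr2, also called MISIIR) drives the SV40 T antigen in the reproductive tract. No mouse received a drug, and ages were not used here. The null genotype is not stated to be restricted to a cell type.

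Motile cilia are the beating projections that move fluid over the oviduct, the airway and the brain ventricles. Cells that form many of them leave the cell cycle, amplify their centrioles and then build an axoneme on each. GMNC and MCIDAS, with E2F4 or E2F5, start this sequence. They turn on MYB, TAp73 and CCNO for centriole amplification, and FOXJ1, which works with RFX factors on the genes of the motile axoneme. In the reproductive tract, the multiciliated cells lie in the epithelium of the oviduct, and the ovary itself is not known for them.

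Each probe is a 60-base oligonucleotide. The first 30 bases of 4 of them are given to show what was read for the genes on which the comparison turns, in the order Foxj1 (chr11:116192214-116192273, minus strand), Ccno (chr13:113780810-113780869, plus strand), Myb (chr10:20844736-20844795, minus strand) and the brightest Trp73 probe (chr4:153433043-153433102, minus strand), with coordinates of the whole probe in mm9 as the files give them. Exon and UTR positions were not assigned.
Foxj1: ggagagactaatatagtgaatgtagttata
Ccno: caagagacagtccctggtgcaacacaggaa
Myb: tgacagtgtatctactgccttgtagcaaaa
Trp73: tgaggaacgtaccttcttctcctgtccttc

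RefSeq promoter windows (GRCm38.p6, 250 bases before to 50 after a start) were matched by symbol for 7 of the 8 genes, 9 windows in all. The half-site that RFX proteins read, GTTGCC on either strand, was found in 5 of these 9 windows, one each of Rfx1, Rfx2, Rfx3, Trp73 and Ccno, and in 12.5% of the 32851 windows of the whole table. In Ccno and Rfx2 it lay upstream of the start, with its first base at -219 and -116. The 250 bases before each start are printed 5′ to 3′ on the strand of the gene, with the half-site in capitals, because RFX genes and Ccno are both among the 8 regulators: Ccno at chr13:112987552-112987801 (plus strand) and Rfx2 at chr17:56831009-56831258 (minus strand).
Ccno: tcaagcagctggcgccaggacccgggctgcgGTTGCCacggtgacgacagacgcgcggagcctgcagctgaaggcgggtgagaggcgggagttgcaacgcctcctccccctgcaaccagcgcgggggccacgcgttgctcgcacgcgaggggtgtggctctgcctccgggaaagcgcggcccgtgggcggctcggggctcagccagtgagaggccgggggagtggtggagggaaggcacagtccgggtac
Rfx2: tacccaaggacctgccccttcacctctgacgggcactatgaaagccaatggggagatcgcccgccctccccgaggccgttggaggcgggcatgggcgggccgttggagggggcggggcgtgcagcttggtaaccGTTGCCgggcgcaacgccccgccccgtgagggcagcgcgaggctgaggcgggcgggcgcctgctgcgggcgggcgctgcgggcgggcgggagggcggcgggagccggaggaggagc

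An E2F motif, GCGGGAA on either strand, was found in 1 of the 9 windows, that of the upstream start of Trp73, which held 2 matches, at -237 and -103. It was present in 4.6% of all windows. That promoter is printed with both matches in capitals (chr4:154139876-154140125, minus strand), because TAp73 transcripts begin upstream and E2F proteins act before Trp73 in the sequence given above.
Trp73: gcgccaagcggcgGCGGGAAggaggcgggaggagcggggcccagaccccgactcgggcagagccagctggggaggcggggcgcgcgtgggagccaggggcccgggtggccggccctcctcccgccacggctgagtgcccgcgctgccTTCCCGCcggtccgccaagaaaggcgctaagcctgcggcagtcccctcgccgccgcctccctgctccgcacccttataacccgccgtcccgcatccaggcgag

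A forkhead motif, GTAAACA, occurred in 1 window, that of Myb, and in 3.65% of all windows. A MYB motif, AACGG, occurred in the windows of Rfx1, Rfx2 and Rfx3 and in 17.4% of all. In Rfx2 and Rfx3 one MYB match overlapped the RFX half-site on the other strand. These matches describe letters in the reference and say nothing of binding in the tumours.

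Levels are log2 signals on a scale whose 0 is the 75th percentile of the processed signals of the same array. They compare tumours for one probe and not one probe with another. Differences are Nedd9-null minus Nedd9-WT, each with its standard error (SE) from limma's fit across all probes, and adjusted p-values are Benjamini-Hochberg values over all 31784 probes tested, with a threshold of 0.05. The percentiles lay between 2550 and 3790 in signal, and 73.0% to 84.6% of probes were well above background. Nedd9 was -2.09, -3.60, -3.48 and -4.12 in Nedd9-null tumours, against 1.03, 0.73, 1.18 and 1.73 in Nedd9-WT tumours (limma adjusted p = 0.0260). The arrays came from 2 slides that held 1 genotype each, so slide and genotype cannot be told apart. One tumour stood apart from its group. Over the kept probes, correlations of Nedd9-null replicate 1 were 0.884 to 0.918 with its own group and 0.938 to 0.973 with the Nedd9-WT group, where Nedd9-null replicates 2 to 4 reached 0.977 to 0.984 among themselves. Results are therefore given with and without it. It was picked from these same arrays, and leaving out the Nedd9-null array most like the Nedd9-WT group favours separation. Adjusted p-values without it are therefore description.

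All 13 probes had a positive difference, against 53.4% of all probes, and 0 of the 13 passed the threshold in limma, where 0.0566% of all probes did (0.044% higher, 0.0126% lower). At an unadjusted p under 0.05 there were 12 of the 13, from all 8 genes, against 24% of all probes in either direction and 14% higher in Nedd9-null tumours. For 7 of the 13 probes every Nedd9-null tumour lay above every Nedd9-WT tumour, which was so for 8.01% of all probes. These were the probes of Foxj1 and Rfx1, 1 probe each of Rfx3 and Rfx4, and all 3 probes of Trp73, so they are not 7 separate genes. Without Nedd9-null replicate 1, 11 probes of 7 genes passed, all higher in Nedd9-null tumours, where 11.2% of all probes did. Rfx1 was the gene that did not. In all 13 probes at least 3 Nedd9-null tumours were above all Nedd9-WT tumours, as for 21.3% of all probes. The 8 genes thus went one way in these tumours, and how far each passed a test depended on 1 of the 8 arrays. The 8 genes had been chosen with earlier results of these data known. The shares of all probes beside them are therefore description and not a test.

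Foxj1 is the forkhead factor that switches on genes of the motile axoneme. Its level was 1.07, 3.06, 3.60 and 3.75 in Nedd9-null replicates 1 to 4, against -1.51, -3.30, -6.21 and -3.94 in Nedd9-WT replicates 1 to 4. The processed signals behind these levels were 5343, 30803, 41820 and 50939 in Nedd9-null tumours and 1093, 351, 43 and 210 in Nedd9-WT tumours. The groups did not overlap, and each spot was well above background. Foxj1 was 97.4-fold higher in Nedd9-null tumours (log2 difference 6.61, SE 1.01, limma adjusted p = 0.0520), just short of the threshold. The two-sided exact permutation p over the 8 tumours was 0.0286, the smallest that 70 arrangements can give. The exact p was the same for Rfx1, Rfx4 and Trp73 (brightest probes), and it was 0.0857 for Rfx3 and 0.114 for Rfx2. Foxj1 passed without Nedd9-null replicate 1 (7.21, limma adjusted p = 0.00288) and after normexp background correction (limma adjusted p = 0.0480). In Nedd9-null replicate 1 alone Foxj1 was 28.0-fold above the Nedd9-WT mean and 5.97-fold above the highest Nedd9-WT tumour.

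Foxj1 also varied within each genotype. The highest and lowest tumours differed 6.41-fold among the Nedd9-null and 25.9-fold among the Nedd9-WT, where replicate 1 was highest and replicate 3 lowest. Among Nedd9-null replicates 2 to 4 the range was 1.62-fold. RNA of a whole tumour was measured, so more cells of a type and more RNA per cell cannot be told apart here or in any result below.

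**Figure D1:**
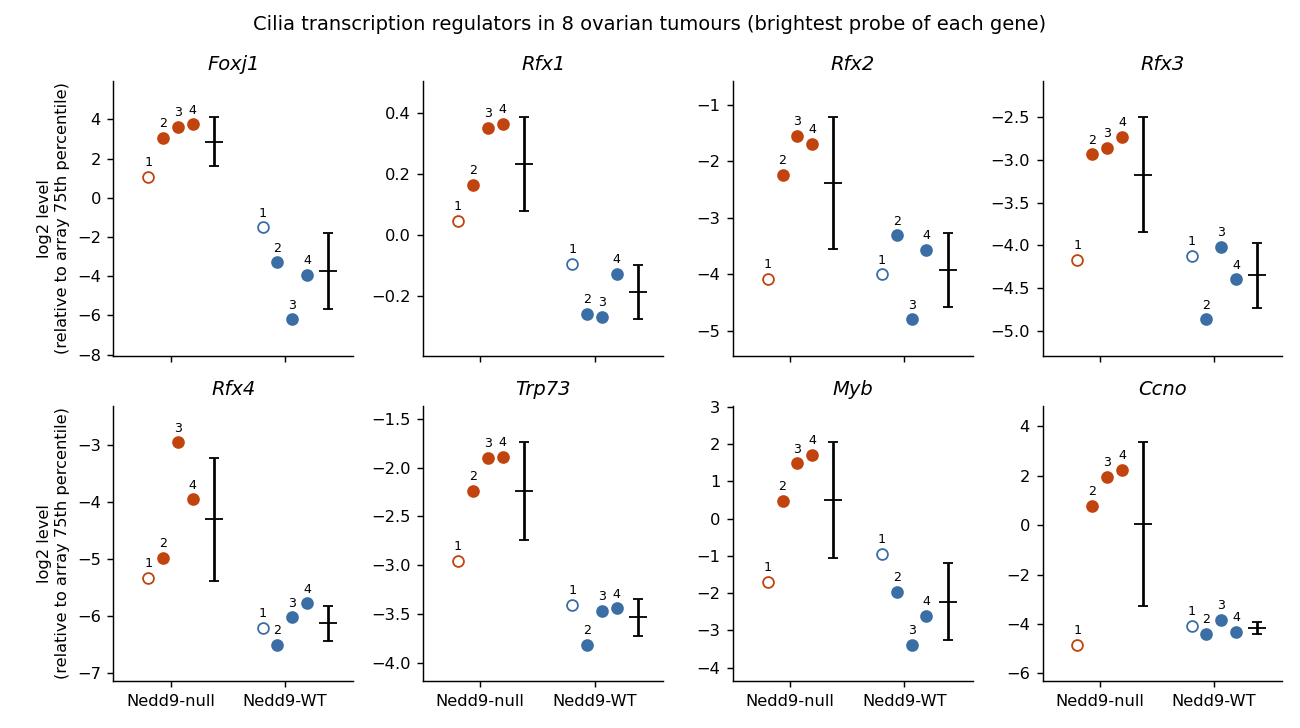
Level of the brightest probe of each of the 8 genes in each tumour (log2 signal relative to the 75th percentile of the array, own scale per panel), Nedd9-null left and Nedd9-WT right, numbered by replicate, with replicate 1 as an open circle and the mean ± SD (n = 4) as a bar. Foxj1, Rfx1, Rfx4 and Trp73 do not overlap between genotypes, while in Rfx2, Rfx3, Myb and Ccno Nedd9-null replicate 1 lies among or below the Nedd9-WT tumours.

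Ccno encodes cyclin O, which centriole amplification needs in multiciliated cells. Its level was -4.83, 0.79, 1.94 and 2.24 in Nedd9-null replicates 1 to 4, against -4.08, -4.40, -3.84 and -4.33 in Nedd9-WT tumours. Nedd9-null replicates 2 to 4 were all high, whereas replicate 1 was below every Nedd9-WT tumour. The signals were 90, 6382, 13231 and 17952 in Nedd9-null tumours, against 160 to 220 in the 4 Nedd9-WT tumours. The difference was 4.20 (SE 1.45, 18.3-fold, limma adjusted p = 0.142, two-sided exact permutation p = 0.143). Without Nedd9-null replicate 1 it was 5.82, or 56.4-fold, with a limma adjusted p of 2.24e-04. The lowest of replicates 2 to 4 was 24.8-fold above the highest Nedd9-WT tumour. The Nedd9-WT tumours spanned a 1.47-fold range and the Nedd9-null tumours a 135-fold range.

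Foxj1 and Ccno therefore separated in Nedd9-null replicate 1. There Foxj1 was 4.81 above the Nedd9-WT mean and Ccno was 0.67 below it. In Nedd9-null replicates 2 to 4 both were high. Within the Nedd9-WT group, Foxj1 varied widely while Ccno did not, as the scatter of Ccno against Foxj1 shows.

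**Figure D2:**
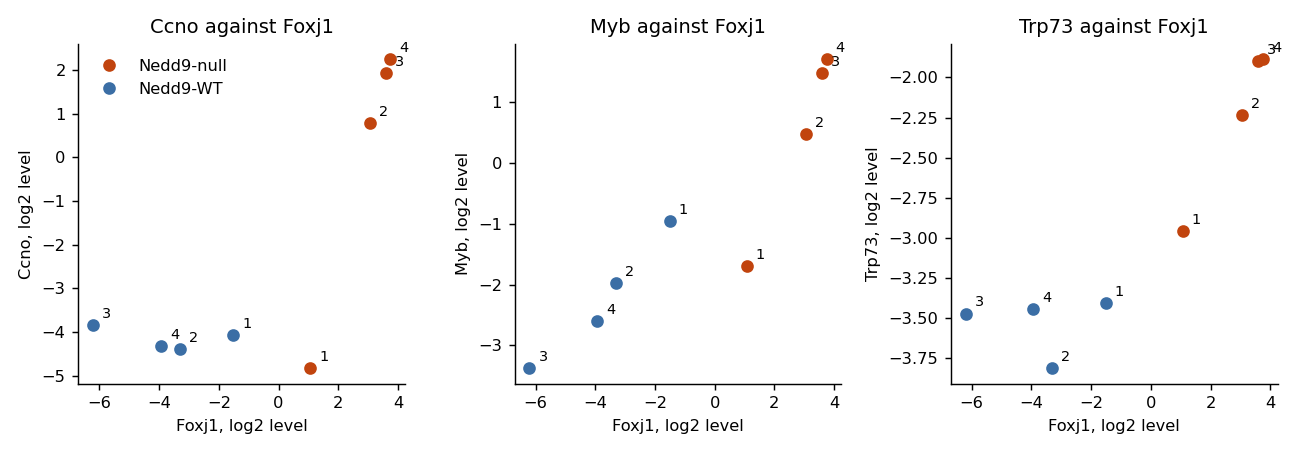
Level of Ccno, Myb and Trp73 (y axes, log2) against Foxj1 (x axis, log2) in the 8 tumours, orange for Nedd9-null and blue for Nedd9-WT, numbered by replicate, with the brightest probe of each gene. Nedd9-null replicate 1 has a Foxj1 level of 1.07 and a Ccno level of -4.83, and Nedd9-WT tumours stay between -4.40 and -3.84 in Ccno over a Foxj1 range of -6.21 to -1.51.

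Myb, a transcription factor of progenitor cells that also acts early in multiciliated cells, had levels of -1.69, 0.48, 1.48 and 1.70 in Nedd9-null tumours, against -0.95, -1.97, -3.38 and -2.61 in Nedd9-WT tumours. Nedd9-null replicate 1 was below Nedd9-WT replicate 1 and above the other Nedd9-WT tumours, so the groups overlapped. The difference was 2.72 (SE 0.82, 6.58-fold, limma adjusted p = 0.114, two-sided exact permutation p = 0.0571). Without Nedd9-null replicate 1 it was 3.45 (limma adjusted p = 0.00721). Myb is also a gene of blood progenitors, and the levels of haematopoietic markers are given below.

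Trp73 encodes p73, a relative of p53 whose TAp73 form acts upstream of Foxj1 and Myb in multiciliated cells. The brightest of its 3 probes read -2.96, -2.24, -1.90 and -1.89 in Nedd9-null tumours, against -3.41, -3.82, -3.47 and -3.45 in Nedd9-WT tumours. The groups did not overlap, and Nedd9-null replicate 1 lay between the other Nedd9-null tumours and the Nedd9-WT tumours. The difference was 1.29 (SE 0.26, 2.45-fold, limma adjusted p = 0.0729), and 1.53 without Nedd9-null replicate 1 (limma adjusted p = 0.00154). With all tumours its adjusted p was the smallest of the 13 probes after that of Foxj1. Exon positions were not assigned, so no Trp73 probe was tied to the TAp73 form.

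The other 2 Trp73 probes also separated the genotypes, with larger differences and dimmer Nedd9-WT spots. A_52_P193555 (chr4:153430443-153430502) read -4.23, -1.13, -0.50 and -0.47 in Nedd9-null tumours, against -4.98, -6.11, -9.84 and -4.94 in Nedd9-WT tumours (difference 4.88, SE 1.28, limma adjusted p = 0.0950). A_55_P1988133 (chr4:153433098-153433157) read -6.03, -3.78, -2.98 and -2.89 in Nedd9-null tumours, against -6.79, -7.66, -9.51 and -7.36 in Nedd9-WT tumours (difference 3.91, SE 0.83, limma adjusted p = 0.0748). On the Nedd9-WT arrays the probes were well above background on 3 and on 2 of 4, so these 2 differences rest in part on values near background. With normexp they were 3.27 and 1.81. Across the 8 tumours the 3 probes correlated at 0.872 to 0.983, and the brightest overlaps A_55_P1988133 by 5 bases, so that pair is not independent. The 3 probes agreed on direction and not on size.

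Rfx1, Rfx2, Rfx3 and Rfx4 encode winged-helix proteins that bind the X-box of ciliary genes. RFX2 and RFX3 are the members best known for cilia, RFX4 is known from the brain, and RFX1 is widely expressed. Rfx1 was 0.05, 0.16, 0.35 and 0.37 in Nedd9-null tumours, against -0.10, -0.26, -0.27 and -0.13 in Nedd9-WT tumours. The groups did not overlap although the difference was only 0.42 (SE 0.15, 1.34-fold, limma adjusted p = 0.143), since the range within each genotype was 1.25-fold and 1.13-fold. This small difference depended on the scale, with 0.22 when each array was centred on its median (limma adjusted p = 0.481), a setting that moved the median of all probes by -0.20.

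Rfx2 was -4.08, -2.24, -1.55 and -1.69 in Nedd9-null tumours, against -4.0, -3.31, -4.80 and -3.57 in Nedd9-WT tumours. Nedd9-null replicate 1 sat within the Nedd9-WT range and the other 3 above it. The difference was 1.53 (SE 0.60, limma adjusted p = 0.174), or 2.09 without that tumour (limma adjusted p = 0.00900).

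Rfx3 has 3 probes, and the brightest (A_55_P2051189) read -4.17, -2.94, -2.86 and -2.73 in Nedd9-null tumours, against -4.12, -4.87, -4.02 and -4.40 in Nedd9-WT tumours. Nedd9-null replicate 1 again lay within the Nedd9-WT range, while replicates 2 to 4 differed by no more than 1.16-fold among themselves. The differences of the 3 probes were 1.11, 1.18 and 1.23 (SE 0.32, 0.36 and 0.31), with limma adjusted p of 0.106, 0.115 and 0.0906. The probes correlated at 0.920 to 0.996 over the 8 tumours. For one of them, A_55_P2138841, the groups did not overlap. Without Nedd9-null replicate 1 the 3 had limma adjusted p of 0.00653, 0.00463 and 0.00514.

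Rfx4 was the gene whose probes disagreed. A_51_P496309 (chr10:84368464-84368523, plus strand) read -5.34, -4.99, -2.96 and -3.96 in Nedd9-null tumours, against -6.22, -6.51, -6.03 and -5.78 in Nedd9-WT tumours, without overlap. A_52_P476877 (chr10:84331133-84331590, plus strand) read -3.93, -5.72, -5.48 and -6.55 in Nedd9-null tumours, against -5.91, -6.39, -6.93 and -6.41 in Nedd9-WT tumours. In the first the highest tumour was Nedd9-null replicate 3, and in the second it was replicate 1, with replicate 4 inside the Nedd9-WT range. The differences were 1.83 (SE 0.50, limma adjusted p = 0.101) and 0.99 (SE 0.52, limma adjusted p = 0.288), and the probes correlated at 0.218 over the 8 tumours. The coordinates of the second span more than its 60 bases. Signals of both were low, at most 445 and 167.

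**Figure D3:**
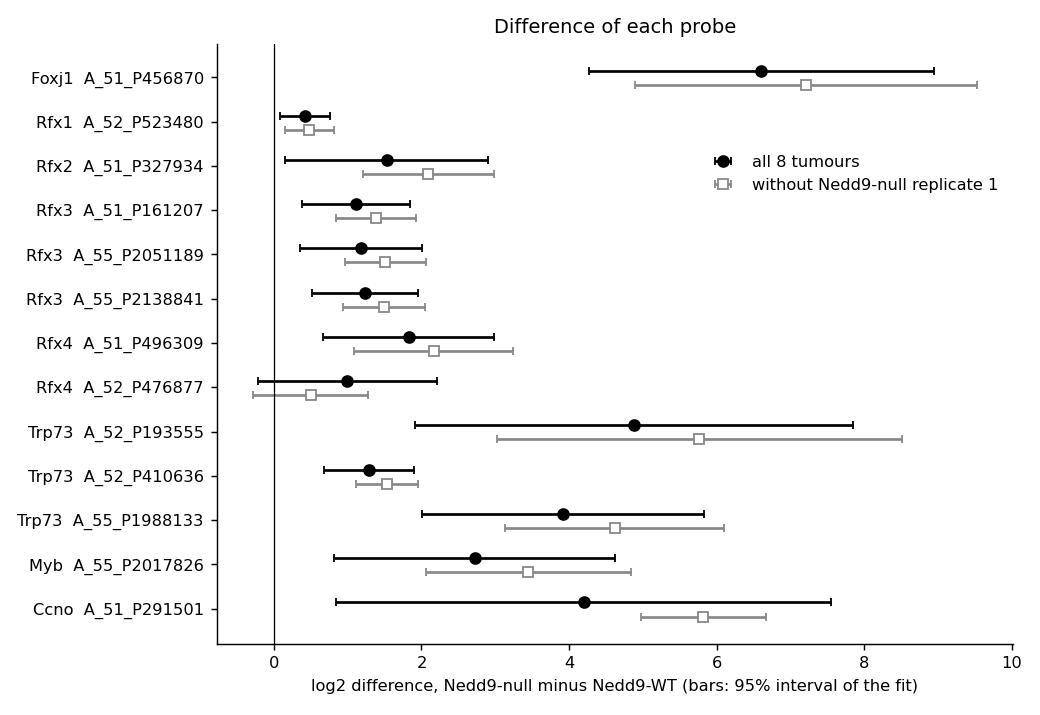
Log2 difference of each of the 13 probes (x axis, Nedd9-null minus Nedd9-WT), as filled circles for all 8 tumours and open squares without Nedd9-null replicate 1, with 95% intervals of limma's fit, which are not adjusted for the number of probes. Rfx4 probe A_52_P476877 is the only one whose interval includes 0 with all tumours, and the interval of Ccno narrows most when that tumour is left out.

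Set side by side, the brightest probes of the 8 genes varied together. Over the 8 tumours the 28 pairs correlated at 0.778 to 0.976, as a description in which the difference between the genotypes and the array are shared. The highest was Rfx1 with Trp73 and the lowest Rfx2 with Rfx3. With Foxj1 the correlation was 0.947 for Rfx1, 0.933 for Myb, 0.908 for Trp73, 0.830 for Rfx2, 0.808 for Rfx4, 0.807 for Rfx3 and 0.799 for Ccno. Of the 25535 other genes, 957 (3.75%) had a value above 0.9. The 5 genes most like Foxj1 were Coq6 (0.998), which encodes a monooxygenase of coenzyme Q synthesis, Ppp2r2c (0.996), a regulatory subunit of protein phosphatase 2A, Eddm3b (0.991), an epididymal protein gene, Mtmr6 (0.991), a phosphoinositide phosphatase gene, and Rsph4a (0.990), a radial spoke gene, read by a probe with an alternating run of 13 bases. Ccno ranked 2612 in likeness to Foxj1, with 0.799 over all tumours and 0.929 without Nedd9-null replicate 1.

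Genes of the commitment step and of centriole amplification were compared next, as 19 genes that act beside or before the 8 regulators. With all tumours 0 of the 19 passed in limma and 7 had an unadjusted p under 0.05, all higher in Nedd9-null tumours. Their median difference was 0.33, with 12 positive and 7 negative, against 0.04 for all probes, and with arrays centred on the median it was 0.13, against -0.15 for all probes. Gmnc and Cdc20b passed the filter through the Nedd9-null arrays alone, which favoured a positive sign. In a fit limited to probes above background on all 8 arrays, 16 of the genes remained. Of these, 9 were positive and 7 negative, with a median of 0.22, and 5 had an unadjusted p under 0.05, all higher. Without Nedd9-null replicate 1, 6 passed, all higher: Gmnc, Foxn4, Ccdc78, Cdc20b, Deup1 and Ccp110. For this list and those below, 24% of all probes had an unadjusted p under 0.05, 14% being higher in Nedd9-null tumours. Without Nedd9-null replicate 1, 11.2% of all probes passed the threshold higher in Nedd9-null tumours.

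Gmnc encodes GEMC1, an early switch of the multiciliated fate. Its probe read -9.59, -1.70, -1.10 and -0.43 in Nedd9-null tumours, against -7.55, -9.37, -9.71 and -10.21 in Nedd9-WT tumours. It was well above background in Nedd9-null replicates 2 to 4 and in no other tumour, so the signal was on in 3 of the 8 arrays. Nedd9-null tumours were at least 21.4-fold higher, a bound that sets their mean against the dimmest signal of each Nedd9-WT array that counted as well above background, or the probe's own where that was higher (limma adjusted p = 0.127). Foxn4, a forkhead gene of the same programme, read -6.90, -1.05, 0.46 and 1.32 in Nedd9-null tumours, against -6.64, -6.55, -7.57 and -6.56 in Nedd9-WT tumours (5.29, SE 1.64, limma adjusted p = 0.118). Gmnc and Foxn4 had the pattern of Ccno, with Nedd9-null replicate 1 at the Nedd9-WT level.

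Other genes of this list were above every Nedd9-WT tumour in Nedd9-null replicate 1 too, as Foxj1 was. Deup1, which builds the deuterosome on which extra centrioles form, read 0.07, 2.27, 2.95 and 3.29 in Nedd9-null tumours, against -0.89, -0.82, -2.34 and -0.74 in Nedd9-WT tumours (3.34, SE 0.73, limma adjusted p = 0.0762). Ccdc78, another deuterosome gene, read -5.19, -1.72, -1.18 and -0.53 in Nedd9-null tumours, against -5.81, -6.87, -6.57 and -6.22 in Nedd9-WT tumours (4.22, SE 0.94, limma adjusted p = 0.0801). The brightest Cdc20b probe was well above background on all 4 Nedd9-null arrays and on 0 of 4 Nedd9-WT arrays. On it, Nedd9-null tumours were at least 7.93-fold higher, or 2.99 in log2 (limma adjusted p = 0.0533). Of the other Cdc20b probes, A_55_P2115062 differed by less, 2.39 (SE 0.32, limma adjusted p = 0.0520), and A_55_P2082025 by 4.77 (SE 1.07, limma adjusted p = 0.0801). These were well above background on 4 and 3 of the 8 arrays, so the size for the gene was not settled. In these 3 genes the groups did not overlap.

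Genes of centriole duplication that all dividing cells use were mixed. Cenpj, which sets centriole length, differed by 0.78 (SE 0.25, unadjusted p = 0.0142, limma adjusted p = 0.123), with every Nedd9-null tumour above every Nedd9-WT tumour. Ccp110, which caps centrioles, differed by 0.71 (SE 0.29, limma adjusted p = 0.181), and by 0.90 without Nedd9-null replicate 1 (limma adjusted p = 0.0494). Other genes of duplication had small differences. Plk4, the kinase that starts it, differed by -0.24 (SE 0.21, limma adjusted p = 0.534), Sass6 by -0.17 (SE 0.17, limma adjusted p = 0.559), Stil by -0.16 (SE 0.17, limma adjusted p = 0.590) and Cep152 by -0.02 (SE 0.16, limma adjusted p = 0.956). The E2F partners of GMNC and MCIDAS were also close between genotypes, with E2f4 at -0.18 (SE 0.20, limma adjusted p = 0.613) and E2f5 at 0.16 (SE 0.20, limma adjusted p = 0.647).

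Mcidas could not be read. Its only probe (chr13:113790543-113790602, plus strand) opens with a run of 20 bases of alternating A and C, as does the brightest probe annotated to Itgam, an integrin gene of myeloid cells (chr7:135261755-135261814, plus strand). The first 30 bases of both are given with that run in capitals.
Mcidas: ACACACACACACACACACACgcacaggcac
Itgam: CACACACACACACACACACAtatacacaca

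The Mcidas probe read 5.76, 4.35, 4.21 and 2.64 in Nedd9-null tumours, against 4.10, 3.63, 2.73 and 4.18 in Nedd9-WT tumours, and the Itgam probe 5.77, 4.33, 4.14 and 2.51 in Nedd9-null tumours, against 4.01, 3.53, 2.68 and 4.13 in Nedd9-WT tumours. Across the 8 tumours the 2 probes correlated at 1.00, while the other 2 Itgam probes correlated with the Mcidas probe at 0.283 and -0.269. No value is therefore drawn for Mcidas, although the probe is counted among the 19. The longest run of a repeated dinucleotide in the 13 probes of the 8 regulators was 6 bases.

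**Figure D4:**
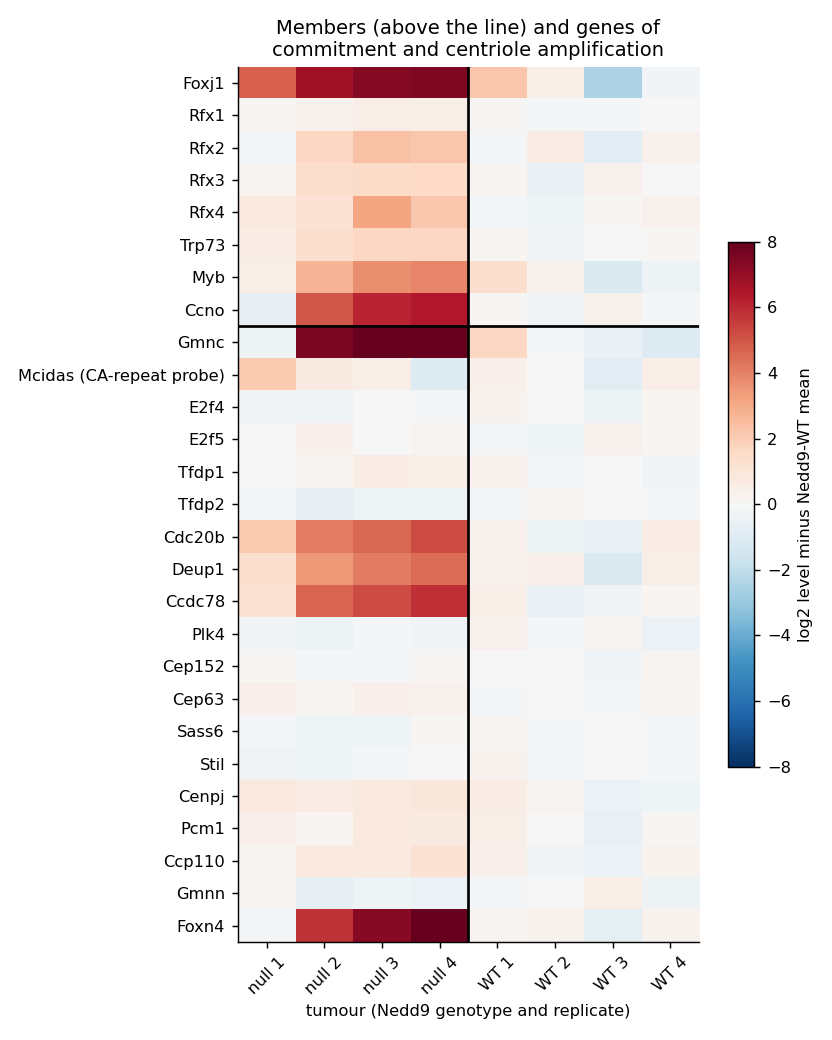
Log2 level of each gene minus its Nedd9-WT mean (colour, -8 to 8, with values beyond in the end colour) in each tumour, Nedd9-null left, for the 8 regulators (above the line) and the 19 commitment and centriole genes (below it). Nedd9-null replicate 1 is raised in Foxj1 (4.81) and near or below 0 in Ccno (-0.67), Rfx2 (-0.17), Gmnc and Foxn4, while replicates 2 to 4 are raised in all of these.

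Ccno, Mcidas and Cdc20b are direct neighbours among the protein-coding genes of chromosome 13 in RefSeq, between Dhx29 and Gpx8. Ccno differed by 4.20, and for the brightest Cdc20b probe only the lower bound given above was measured. Dhx29 differed by -0.43 (SE 0.17, limma adjusted p = 0.178) and Gpx8 by 0.93 (SE 0.34, limma adjusted p = 0.156). Neither flanking gene passed without Nedd9-null replicate 1. Nedd9 lies on the same chromosome, and its probe and that of Ccno are 72.4 Mb apart in mm9.

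Genes of the motile axoneme and its assembly are the targets of FOXJ1 and RFX factors. Of 30 listed, 29 passed the filter and had a positive difference, with a median of 3.99. Of these, 4 passed it through the Nedd9-null arrays alone, which favoured a positive sign, and with the 2 that were on 0 Nedd9-WT arrays above background (Spag16 and Spag17) at their lower bounds the median was 3.95. The 22 genes above background on all 8 arrays were also all positive, with a median of 3.92. In limma 0 passed with all tumours, 28 had an unadjusted p under 0.05, and 28 passed without Nedd9-null replicate 1, Dnah9 being the exception. Spag6 stayed below the filter. Rsph4a, a radial spoke head gene, read -0.95, 0.44, 0.84 and 0.92 in Nedd9-null tumours, against -2.53, -3.98, -4.96 and -3.28 in Nedd9-WT tumours (4.00, SE 0.60, limma adjusted p = 0.0520). That probe holds an alternating run of 13 bases. The other Rsph4a probe, A_55_P1995647, read -4.31, -0.36, 0.15 and 0.37 in Nedd9-null tumours, against -4.44, -7.45, -8.35 and -6.81 in Nedd9-WT tumours. In both, Nedd9-null replicate 1 was above every Nedd9-WT tumour, though in the second by little. For the list as a whole that was not so. The mean over its genes of the level above the Nedd9-WT mean was 0.87, 4.68, 5.43 and 5.54 in Nedd9-null tumours, against 1.26, -0.56, -0.48 and -0.22 in Nedd9-WT tumours. Nedd9-WT replicate 1, which had the highest Foxj1 of its group, exceeded Nedd9-null replicate 1.

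Genes of intraflagellar transport and the BBSome serve every cilium, motile or not. Of 26, 25 were positive, with a median of 1.10. In limma 0 passed with all tumours, 19 had an unadjusted p under 0.05, and 20 passed higher without Nedd9-null replicate 1. The smallest p was that of Ift81, a subunit of the anterograde train, which was 3.39-fold higher (1.76, SE 0.34, limma adjusted p = 0.0663).

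Relatives of the 8 genes were not part of this pattern. Of 12, 11 were measured (Rfx6 stayed below the filter), with a median difference of -0.04, 4 positive and 7 negative. In limma 0 passed, and Trp53 alone had an unadjusted p under 0.05 (-0.49, SE 0.18, limma adjusted p = 0.161). Without Nedd9-null replicate 1, Mybl1 passed, lower in Nedd9-null tumours by 0.72 (limma adjusted p = 0.0455). Rfx5, the RFX factor of MHC class II genes, differed by 0.16 (SE 0.16, limma adjusted p = 0.576). The brightest Trp63 probe holds a trinucleotide repeat of 21 bases, so no value is drawn from it, although it is counted among the 11. The other Trp63 probe differed by -0.08 (SE 0.63, limma adjusted p = 0.952). Proliferation genes had a median of 0.04 over 9 measured, 0 passed with or without Nedd9-null replicate 1, and 0 had an unadjusted p under 0.05 with all tumours.

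Markers of other cells moved with the 8 regulators, and their part in the result was not tested. Oviduct secretory genes had a median of 2.87 over 7 measured (1.5 without Nedd9-WT replicate 3), with 0 past the threshold in limma, 4 at an unadjusted p under 0.05 (3 higher, 1 lower) and 4 past it, higher, without Nedd9-null replicate 1. Ovgp1, the oviductal glycoprotein gene, read -2.90, 6.28, 6.91 and 6.44 in Nedd9-null tumours, against -0.33, -4.22, -2.85 and -2.73 in Nedd9-WT tumours (6.72, SE 2.18, limma adjusted p = 0.128). Wfdc2 and Sox17, Muellerian epithelial genes, differed by 5.11 and 3.60, Krt7 by 1.67, Msln by 0.33 and Muc16 by -1.91. Krt7 passed in limma without Nedd9-null replicate 1, higher in Nedd9-null tumours (2.88, adjusted p = 0.0024). Pax8 differed by 2.87 (SE 1.47, limma adjusted p = 0.276), which rested on Nedd9-WT replicate 3 at -5.88, where the other Nedd9-WT tumours read 1.37, 0.02 and 0.77. Without that tumour the difference of Pax8 was 1.22 (limma adjusted p = 0.178). In Nedd9-null replicate 1, Ovgp1 and Sox17 were within the Nedd9-WT range and Wfdc2 was just above it (-3.32 against a highest Nedd9-WT value of -3.57), while replicates 2 to 4 were high in all 3. Pax8 was highest of all 8 tumours there (2.37), and Krt7 (-4.01), Msln (-1.74) and Muc16 (-4.53) were below every Nedd9-WT tumour, so the list did not go one way in that tumour.

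Ovarian somatic genes mostly went the other way, with a median of -3.93 over 9, 8 of them negative. Foxl2 was the exception (0.28, SE 0.18, limma adjusted p = 0.377), read by a probe with a trinucleotide run of 11 bases. In limma 0 passed, 7 had an unadjusted p under 0.05, all lower in Nedd9-null tumours, and 6 passed lower without Nedd9-null replicate 1, where 8.88% of all probes did. Amhr2, whose regulatory sequence drives the transgene, read 6.39, 2.08, 0.20 and 1.55 in Nedd9-null tumours, against 6.12, 6.89, 6.93 and 5.99 in Nedd9-WT tumours. Inha, the inhibin alpha gene of granulosa cells, read 4.36, 0.03, -3.36 and -3.17 in Nedd9-null tumours, against 5.40, 5.26, 4.28 and 4.39 in Nedd9-WT tumours. The mean of the list above the Nedd9-WT mean was -0.55, -3.10, -5.94 and -5.59 in Nedd9-null tumours, against -0.06, 0.62, -0.52 and -0.04 in Nedd9-WT tumours. Nedd9-null replicate 1 thus had a list mean just below the lowest of the Nedd9-WT tumours, together with a high Foxj1. Single genes differed in that tumour. Amhr2, Inha and Star were within the Nedd9-WT range, Foxl2 was above it, and Cyp11a1 (-5.23) was below the lowest Nedd9-WT value of -3.15.

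The remaining marker lists bear on Myb and Rfx4, which are also expressed in blood progenitors and in the brain. Haematopoietic genes had a median of 0.14 over 12, with 0 past the threshold in limma. At an unadjusted p under 0.05 there were 3, all lower in Nedd9-null tumours. That count is near the share of all probes, 24% in either direction. Gata1, which Sertoli cells also express, differed by -5.65, Kit by -2.10 and Cd34 by -0.99. Kit passed in limma without Nedd9-null replicate 1, lower in Nedd9-null tumours (-2.87, adjusted p = 0.0087). The list's mean above the Nedd9-WT mean was 0.19, -0.03, -0.69 and -0.92 in Nedd9-null tumours, against 0.33, -0.42, 0.08 and 0.01 in Nedd9-WT tumours. Without Gata1 and the Itgam repeat probe it was 0.09, 0.44, -0.04 and -0.22 in Nedd9-null tumours, against 0.41, -0.54, 0.11 and 0.02 in Nedd9-WT tumours, and the groups overlapped. The part of blood cells in the Myb levels was not tested. Neural genes were measured for 4 of 6, with Sox2 and Olig2 below the filter, and they went both ways. Gfap, a glial filament gene, differed by 1.84 (SE 0.67, limma adjusted p = 0.154), and by 2.35 without Nedd9-null replicate 1 (limma adjusted p = 0.0279). The neuronal tubulin gene Tubb3 differed by -1.34 (SE 0.20, limma adjusted p = 0.0520), Elavl3 by 0.26 and Nes by 0.03. Tubb3 passed in limma without Nedd9-null replicate 1, lower in Nedd9-null tumours (adjusted p = 0.0043). The part of neural cells in the Rfx4 levels was not tested. Germ cell genes, measured for 6 of 7, went both ways, with 3 positive, 3 negative and a median of 0.05. They held the only gene of these lists that passed with all tumours, Dmc1. It was lower in Nedd9-null tumours (-4.63, SE 0.43, limma adjusted p = 0.0260). Ddx4 was also lower (-2.26, limma adjusted p = 0.0743), while Zp3 (1.68, limma adjusted p = 0.0520) and Sycp3 (0.74, limma adjusted p = 0.257) were higher.

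**Figure D5:**
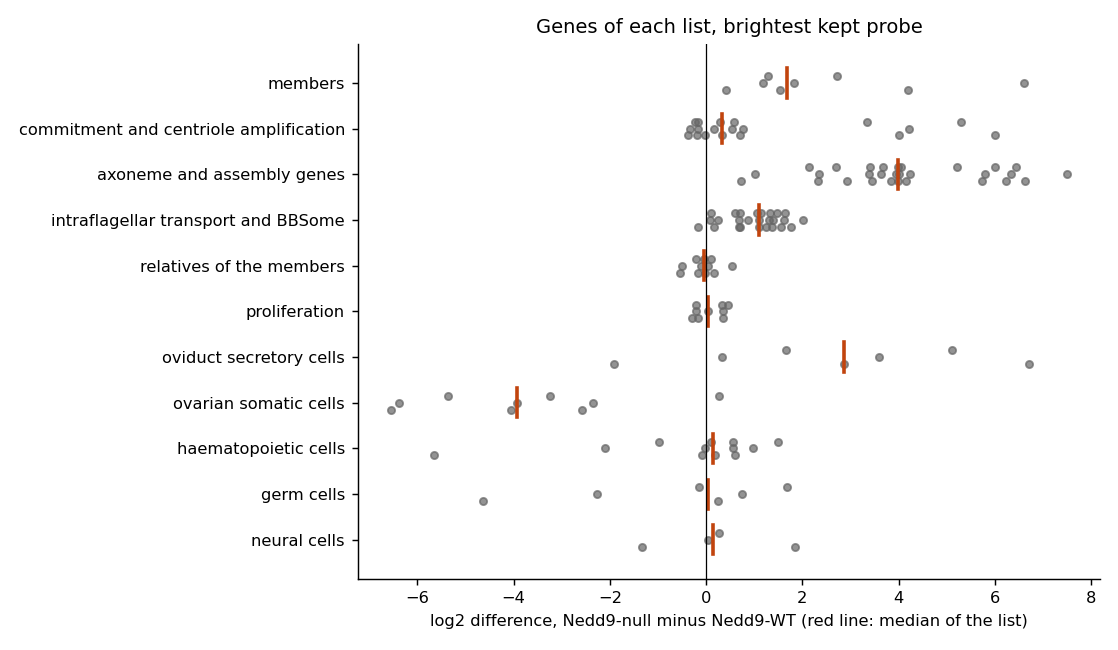
Log2 difference (x axis, Nedd9-null minus Nedd9-WT) of every measured gene of the 8 regulators and of 10 gene lists, 1 point per gene for its brightest kept probe, with the median of each list as a red line. The medians are 3.99 for axoneme genes, 1.68 for the 8 regulators and 1.10 for intraflagellar transport and BBSome genes, against -0.04 for relatives of the 8 genes and -3.93 for ovarian somatic genes.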

How the data were processed

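Each of 8 tumours was hybridised to 1 Agilent array, from 500 ng of RNA per the labels' protocols. The deposited spot files hold 1-colour intensity values and flags, made with Agilent Feature Extraction 9.5.3 per the submitters' processing notes. The authors' deposited value table holds log2 values and was used as an alternative. Probe coordinates are mm9, per the file headers.

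Control spots (1377 of 44397) and outlier spots were left out, and repeated spots were averaged, for 39429 probes. The level was log2 of the processed intensity, less that of the array's 75th percentile. The filter asked for a signal well above background on 3 or more of the 4 arrays of either genotype (31784, for 25536 genes), and lists used the brightest kept probe of a gene. A limma fit (version 3.58.1, R 4.3.3) over all kept probes compared the genotypes, with Benjamini-Hochberg adjustment, and single genes also by exact permutation of the tumours. The fit was also run on simulated data with independent noise and no array apart from its group. That run does not bear on the place of Nedd9-null replicate 1.

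Names were updated through RefSeq (GRCm38.p6): 26055 probes matched by accession, 3195 by symbol, 930 by synonym, and 9249 remained under the array's own name. The 8 genes and the 10 lists were chosen with earlier results of these data known. The genes named were all 8, Nedd9, up to 4 of each list with the smallest p, any commitment gene, and the 5 genes most like Foxj1. Pax8, Krt7, Msln, Foxl2, Sox2, Olig2, Dnah9, Spag6, Rfx6, the other Itgam, Trp63 and Cdc20b probes, and the neighbours of Ccno were named after their values were seen. RFX proteins were not compared here. Replicates are labelled as separate mice of a group. The number of arrays limits the precision.

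Alternatives were normexp background correction, quantile normalization, the median as the scale, the deposited value table, 2 other filters, 1 probe per gene, array weights, the replicate number as a block, and each tumour left out. List means without Gata1 and Itgam, and list medians with genes at their lower bound, were added after seeing the data.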

Additional observations from a re-analysis of the deposited data

Results flagged for a closer look

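In 3 of 48 tests, each over the 4 tumours of 1 genotype, 1 tumour lay far from the others, and chance gives about 1 in 20. Nedd9-null replicate 1 had -4.17 for Rfx3 (probe A_55_P2051189, log2 level), below the other 3 Nedd9-null tumours. Nedd9-WT replicate 2 had -3.82 for Trp73 (probe A_52_P410636, log2 level), below the other 3 Nedd9-WT tumours. Relatives of the 8 genes stood, on average, 0.105 log2 units above their Nedd9-WT mean in Nedd9-null replicate 1, above the other 3 Nedd9-null tumours. That average includes the brightest Trp63 probe, which holds a trinucleotide repeat and read 2.43 in that tumour, against a Nedd9-WT mean of 1.49. It is therefore not read as a trait of the relatives.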

How the results depend on the processing

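The difference of each of the 13 probes was recomputed under up to 17 alternatives, 214 values in all. All 214 kept a positive sign, 190 kept their side of the threshold and 24 passed it, of which 11 came without Nedd9-null replicate 1, 12 with array weights (which gave that tumour a weight of 0.221, the lowest) and 1 with normexp (Foxj1). The number of probes past the threshold, 18 of 31784, was 77 with normexp, 6 with quantile normalization, 9 with the median as the scale, 10 with only probes above background on all 8 arrays, and 7778 with array weights. It ranged from 0 to 6237 when 1 tumour was left out, the highest with Nedd9-null replicate 1 left out, followed by 50 with Nedd9-WT replicate 1 left out, and was at most 3 otherwise. The cause was not tested. With the replicate number as a block the count was 0. Tumours of the same number did not deviate together (r = -0.237 to -0.0427). With 1 tumour of each genotype per number, that does not decide whether the numbers pair the mice. The slide could not be fitted as a block, since each slide holds 1 genotype. Spots near background limit the size of the Trp73, Gmnc and Cdc20b differences.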
